A study of Mus musculus with 12 samples.

Results

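A set of 8 genes that encode the membrane proteins and the spectrin skeleton of the red blood cell was followed through RNA-seq of sorted mouse fetal liver (FL) cells. They were taken by name, *Sptb*, *Ank1*, *Epb41*, *Epb42*, *Slc4a1*, *Add2*, *Tmod1* and *Rhag*, from the 38127 genes counted in each of 12 libraries, and all 8 were found and passed the filter on low counts. The libraries come from C57BL/6 embryos, 3 for each of 4 sorted populations, and the study describes n = 3 independent litters. All 4 populations were sorted from FL digested with liberase as cells without Ter119, the marker of maturing erythroid cells, and without CD45, the pan-leukocyte marker. P2 cells were sorted at E14.5 as Kit+CD24+ cells without CD54 and CD31. The CD324+ cells at E14.5 carry the label CD54+CD31−, and the CD31+ cells at E14.5 carry the label CD54+CD31+. The fourth population holds CD54+CD31− cells at E18.5. The study sequenced the populations to find out what kind of cell P2 is, and the levels of the 8 genes are one readout of that comparison.

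Libraries held between 40714017 and 64368883 counts, so counting error is small for genes at the levels given here, and precision depends on having 3 libraries of each population. Levels are given in CPM, counts per 1000000 reads after edgeR's TMM scaling of the 12 libraries, in the order of replicates 1, 2 and 3, and as mean ± SD over n = 3 libraries. The labelled populations were checked on their markers. The summed level of 10 hepatoblast genes was 75666 to 87239 CPM in CD324+ cells and at most 1025 CPM in P2 and CD31+ cells, and the summed level of 10 endothelial genes was 10079 to 10737 CPM in CD31+ cells and at most 452 CPM in P2 cells (replicate 2, with 86.4 and 136 CPM in replicates 1 and 3). CD31+ libraries also held 479 to 771 CPM of 8 megakaryocyte genes, against at most 126 CPM elsewhere. The summed level of 10 macrophage genes was 1542 to 1905 CPM in CD31+ cells, 411 to 566 CPM in CD324+ cells and 18.3 to 76.9 CPM in P2 cells. Of these 10 genes 2 were higher and 6 lower in CD31+ than in CD324+ cells (adjusted p below 0.05, edgeR). Over all genes tested, 31.7% were higher and 34.0% lower there. The part of megakaryocytes and macrophages in the levels below was not tested. The E18.5 libraries held 9765 to 21673 CPM of 10 lung epithelial genes, against at most 250.1 CPM elsewhere. E18.5 replicate 1 stood apart, with the highest lung sum and 5808 CPM of hepatoblast genes against 40398 and 52319 CPM in replicates 2 and 3. The members' E18.5 values and the counts over the lists are therefore given with and without it.

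The red cell membrane is held up from inside by a network of spectrin tetramers whose ends meet at short actin filaments. The network hangs on the lipid bilayer at 2 kinds of site: ankyrin ties β-spectrin to complexes of band 3, protein 4.2 and the Rh proteins, and protein 4.1 with adducin and tropomodulin ties spectrin to actin and to the membrane at the junctions. Erythroid progenitors start to make the parts at different times during maturation, and loss of several of them causes hereditary spherocytosis or elliptocytosis.

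The regions just before the start of 3 of the genes are shown because these genes, *Sptb*, *Add2* and *Rhag*, stood among the members with the largest differences between P2 cells and the other populations. Each line holds 220 bases, from 250 to 31 bases before the RefSeq start (RefSeq promoters, GRCm38.p6), read 5′ to 3′ on the strand of the gene: *Sptb* at chr12:76710578-76710797 on the minus strand, *Add2* at chr6:86028431-86028650 on the plus strand, and *Rhag* at chr17:40810899-40811118 on the plus strand. Capitals mark CACCC on either strand (GGGTG where it lies on the other strand), the core letters of the sites that erythroid Krüppel-like factors are known to bind.
Sptb: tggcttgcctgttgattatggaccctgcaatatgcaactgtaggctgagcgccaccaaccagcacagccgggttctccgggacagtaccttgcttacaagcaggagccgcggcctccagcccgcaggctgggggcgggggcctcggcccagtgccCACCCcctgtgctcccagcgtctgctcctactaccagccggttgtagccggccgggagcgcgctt
Add2: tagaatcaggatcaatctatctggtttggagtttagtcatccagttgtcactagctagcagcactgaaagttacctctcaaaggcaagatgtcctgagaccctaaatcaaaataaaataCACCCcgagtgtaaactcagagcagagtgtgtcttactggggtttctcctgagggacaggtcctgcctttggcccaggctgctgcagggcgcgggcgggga
Rhag: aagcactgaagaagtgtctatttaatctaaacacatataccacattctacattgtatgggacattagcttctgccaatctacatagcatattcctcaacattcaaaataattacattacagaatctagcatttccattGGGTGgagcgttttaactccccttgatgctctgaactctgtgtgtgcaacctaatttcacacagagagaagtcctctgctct
CACCC was found once in each, 95 bases before the start in *Sptb*, 131 in *Add2* and 112 in *Rhag*. Over all 32841 promoters of the same window, 47.8% hold CACCC or GGGTG. The core letters of GATA factor sites, GATAA on either strand, are in 20.6% of the promoters and in none of these 3. The table held a promoter for 6 of the 8 members, and *Ank1* and *Slc4a1* were not among them. Of the 3 members whose promoters are not shown, *Epb41* had neither motif in its first promoter, *Epb42* had the GATA letters once, 226 bases before its RefSeq start, and *Tmod1* had the other motif 141 and 87 bases before its own. A match of these letters does not show that a factor binds there.

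In P2 cells, 7 of the 8 genes were higher than in CD324+ cells and *Slc4a1* was lower (quasi-likelihood test of edgeR, adjusted by Benjamini-Hochberg over 15461 genes, adjusted p below 0.05). Among all genes tested, 33.8% were called higher and 36.1% lower in this comparison. The median log2 fold change was 1.21 over the 8 members and -0.01 over all genes tested. Against CD31+ cells 7 members were again higher in P2 cells and none was lower, where the shares over all genes were 34.3% higher and 39.4% lower, and the medians were 1.78 over the members and -0.13 over all genes. With the authors' library factors in place of TMM, the part of all calls that lay higher in P2 cells moved from 48.4% to 38.2% in the first comparison and from 46.6% to 33.9% in the second. Both comparisons use the same P2 libraries, so their counts are not separate evidence. In bulk RNA, fewer cells of a type and less RNA per cell cannot be told apart, and this holds for every level below. *Ank1*, *Add2* and *Rhag* are also in the study's own list of genes higher in P2 than in CD324+ cells, which was drawn from these libraries.

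**Figure D1:**
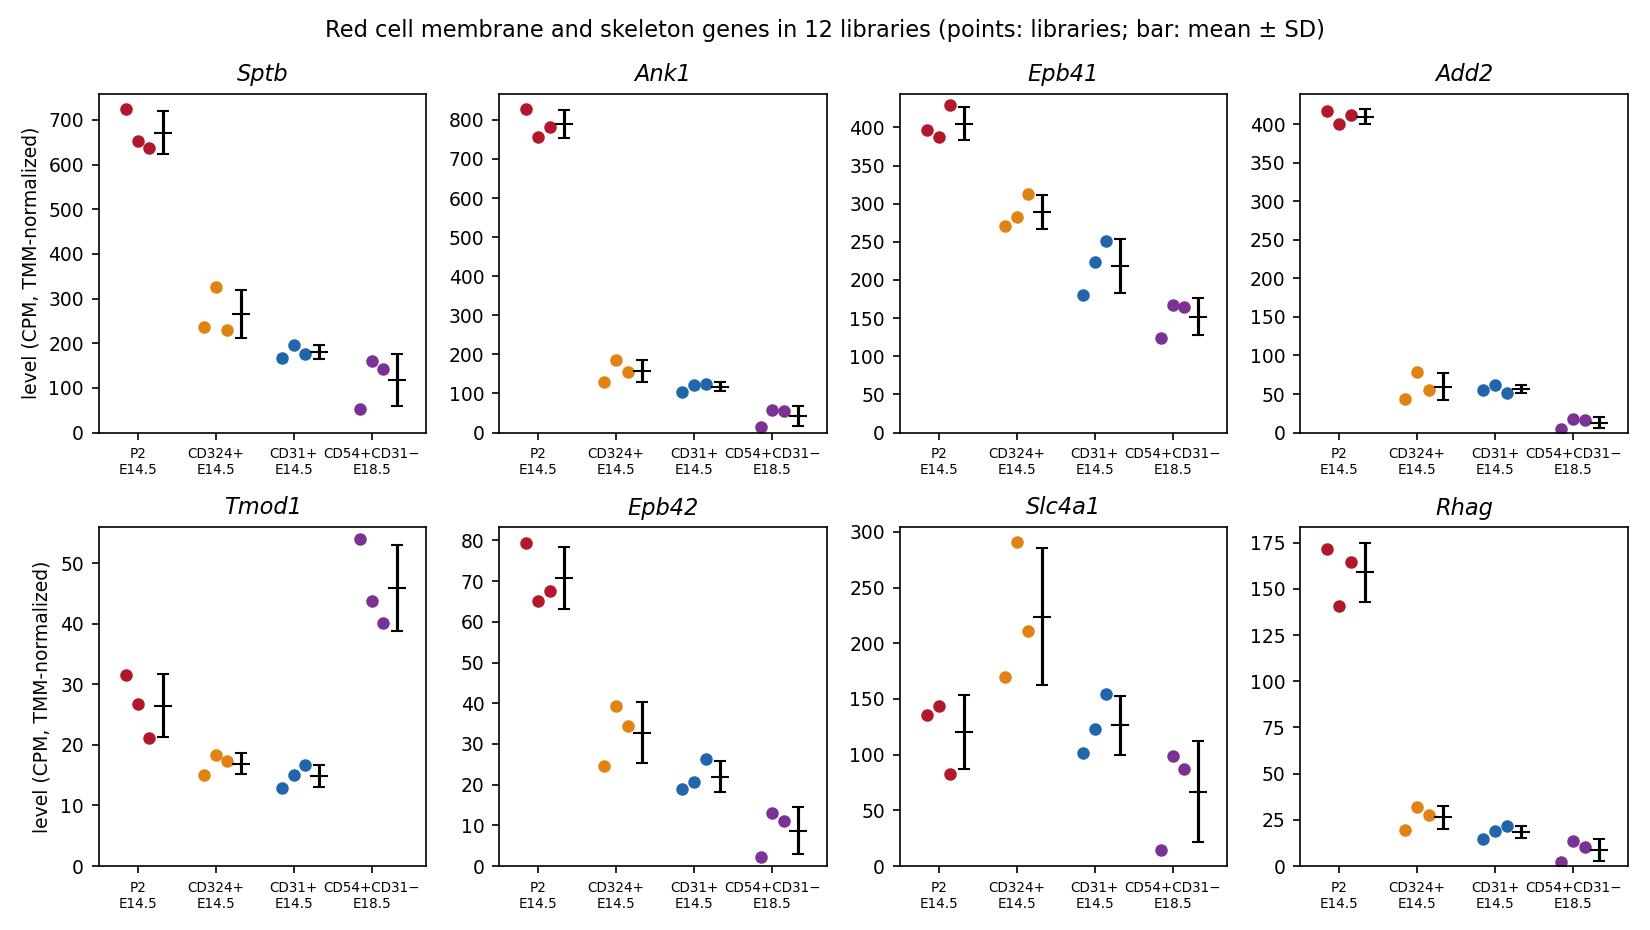
TMM-normalized level (CPM) of the 8 genes in each of the 12 libraries. Each point is 1 library and the bar is the mean ± SD of the 3 libraries of a population. The P2 points lie above all others for *Sptb*, *Ank1*, *Epb41*, *Epb42*, *Add2* and *Rhag*, whereas *Slc4a1* is highest in CD324+ cells (224 CPM) and *Tmod1* in E18.5 cells (45.9 CPM).

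*Sptb* (ENSMUSG00000021061, chromosome 12 of GRCm38 from 76580488 to 76710547) encodes β-spectrin, the chain that binds ankyrin and, at its other end, actin and protein 4.1. Its level was 725, 653 and 636 CPM in P2 cells, 237, 327 and 231 CPM in CD324+ cells, and 167, 197 and 175 CPM in CD31+ cells. At E18.5 it was 52.4, 161 and 141 CPM. The 4 populations were ordered P2, CD324+, CD31+ and E18.5 without overlap between neighbours, and the 3 P2 libraries differed from each other by far less than from any other library. Against CD324+ cells, P2 cells were higher by a log2 fold change of 1.32 (standard error, SE, 0.14, adjusted p = 9.595e-06, edgeR), and against CD31+ cells by 1.89 (SE 0.14, adjusted p = 8.06e-07, edgeR).

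*Epb41* (ENSMUSG00000028906, chromosome 4 from 131923413 to 132075321) encodes protein 4.1R, which strengthens the contact of spectrin with actin and is also made in many cells outside the blood. Its level was 397, 388 and 429 CPM in P2 cells, 270, 283 and 313 CPM in CD324+ cells, 180, 223 and 251 CPM in CD31+ cells, and 124, 167 and 165 CPM at E18.5. The order was the same as for *Sptb*, again with no overlap between neighbours, but the steps were smaller and CD324+ cells had 71.4% of the P2 mean. P2 cells were higher by 0.47 on the log2 scale against CD324+ cells (SE 0.12, adjusted p = 0.005373, edgeR) and 0.88 against CD31+ cells (SE 0.12, adjusted p = 7.324e-05, edgeR). With the authors' library factors in place of TMM the first was 0.20 and no longer called (adjusted p = 0.1396, edgeR).

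*Add2* (ENSMUSG00000030000, chromosome 6 from 86028681 to 86124409) encodes β-adducin, which caps the actin filaments of the junctions together with α-adducin and draws spectrin to them. It had 418, 400 and 412 CPM in P2 cells, 44.1, 78.3 and 55.0 CPM in CD324+ cells, 55.7, 61.6 and 51.2 CPM in CD31+ cells, and 4.26, 17.7 and 16.7 CPM at E18.5. P2 cells stood alone at the top with a spread of 9.18 CPM (SD) around a mean of 410 CPM, while CD324+ and CD31+ libraries overlapped. *Add2* had the largest log2 fold change of the members against CD324+ cells, 2.78 (SE 0.18, adjusted p = 3.131e-07, edgeR), and 2.86 against CD31+ cells (SE 0.18, adjusted p = 3.271e-07, edgeR).

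*Tmod1* (ENSMUSG00000028328, chromosome 4 from 46038935 to 46116032) encodes tropomodulin-1, which caps the pointed ends of the same filaments and is also known from striated muscle. Its level was 31.5, 26.7 and 21.1 CPM in P2 cells, 14.97, 18.4 and 17.4 CPM in CD324+ cells, and 12.9, 15.1 and 16.6 CPM in CD31+ cells. At E18.5 it was 53.9, 43.7 and 40.2 CPM. The E18.5 libraries thus lay above every P2 library and the P2 libraries above every CD324+ and CD31+ library, while CD324+ and CD31+ libraries overlapped. The log2 fold change of P2 cells was 0.63 against CD324+ cells (SE 0.16, adjusted p = 0.004989, edgeR) and 0.82 against CD31+ cells (SE 0.16, adjusted p = 0.0008443, edgeR). The first was 0.37 and not called with the authors' factors (adjusted p = 0.05682, edgeR). *Tmod1* shares 1287 exon bases, 32.62% of its exons, with *Tstd2* on the opposite strand, and since the sources used here do not state whether counting used strand, its counts are uncertain. *Tstd2* had 23.3 to 40.1 CPM over the 12 libraries and its log2 fold changes were 0.19 (P2 against CD324+), -0.10 (P2 against CD31+) and -0.13 (E18.5 against E14.5), none of them called, and 0.29 in CD31+ against CD324+ cells (adjusted p = 0.01068, edgeR).

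*Ank1* (ENSMUSG00000031543, chromosome 8 from 22974844 to 23150497) encodes ankyrin-1, the adaptor between β-spectrin and band 3. It had 827, 756 and 783 CPM in P2 cells. CD324+ cells had 130, 186 and 154 CPM, CD31+ cells 103, 123 and 126 CPM, and E18.5 cells 13.5, 58.9 and 55.1 CPM. The populations again did not overlap, and CD324+ cells had 19.9% and CD31+ cells 14.9% of the P2 mean. Its log2 fold change was 2.31 against CD324+ cells (SE 0.13, adjusted p = 1.18e-07, edgeR) and 2.74 against CD31+ cells (SE 0.14, adjusted p = 7.841e-08, edgeR).

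*Epb42* (ENSMUSG00000023216, chromosome 2 from 121017891 to 121037072) encodes protein 4.2, a catalytically inactive member of the transglutaminase family that steadies the contact of ankyrin with band 3. Its level was 79.4, 65.1 and 67.7 CPM in P2 cells, 24.5, 39.4 and 34.5 CPM in CD324+ cells, 18.9, 20.7 and 26.4 CPM in CD31+ cells, and 2.26, 12.9 and 11.01 CPM at E18.5. P2 libraries were highest and E18.5 libraries lowest, and CD324+ and CD31+ libraries overlapped. P2 cells were higher by 1.09 on the log2 scale against CD324+ cells (SE 0.18, adjusted p = 0.0002928, edgeR) and 1.67 against CD31+ cells (SE 0.18, adjusted p = 1.263e-05, edgeR).

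*Rhag* (ENSMUSG00000023926, chromosome 17 from 40811126 to 40840754) encodes the Rh-associated glycoprotein, an ammonia channel that carries the Rh protein to the surface. It had 171, 141 and 164 CPM in P2 cells, 19.6, 32.1 and 27.5 CPM in CD324+ cells, 14.8, 18.8 and 21.7 CPM in CD31+ cells, and 2.11, 13.5 and 10.6 CPM at E18.5. P2 libraries were far above the others, CD324+ and CD31+ libraries overlapped, and E18.5 libraries were lowest. The log2 fold change of P2 cells was 2.57 against CD324+ cells (SE 0.19, adjusted p = 7.961e-07, edgeR) and 3.10 against CD31+ cells (SE 0.20, adjusted p = 3.022e-07, edgeR), the largest of the members in the second comparison.

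*Slc4a1* (ENSMUSG00000006574, chromosome 11 from 102348824 to 102366203) encodes band 3, the chloride and bicarbonate exchanger and the main membrane anchor of ankyrin. Its order differed from that of its partners. It had 136, 143 and 82.3 CPM in P2 cells, 170, 291 and 211 CPM in CD324+ cells, 101.8, 123 and 155 CPM in CD31+ cells, and 14.6, 98.9 and 87.1 CPM at E18.5. Every CD324+ library lay above every P2 and CD31+ library, P2 and CD31+ libraries overlapped, and so did P2 and E18.5 libraries. The log2 fold change of P2 cells was -0.91 against CD324+ cells (SE 0.25, adjusted p = 0.00767, edgeR), which was not called when all 12 libraries were fitted together (-0.89, adjusted p = 0.1547, edgeR). Against CD31+ cells it was -0.08 (SE 0.25, adjusted p = 0.7771, edgeR), a difference that the spread of these libraries leaves undecided in both directions, and it was 0.15 without CD31+ replicate 3 and 0.14 without P2 replicate 3.

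Genes of late erythroid maturation are given beside *Slc4a1*, and the pair of globin genes was chosen after the values had been seen. *Hba-a1*, an α-globin gene, had 34.8, 34.5 and 28.5 CPM in P2 cells, 38.9, 60.3 and 55.7 CPM in CD324+ cells, and 23.7, 27.7 and 72.5 CPM in CD31+ cells. *Hbb-bs*, a β-globin gene, had 48.1, 43.9 and 32.8 CPM, 47.7, 122 and 74.8 CPM, and 26.7, 64.1 and 169 CPM in the same order. In P2 against CD324+ cells neither *Hba-a1* (-0.68, adjusted p = 0.1214, edgeR) nor *Hbb-bs* (-0.99, adjusted p = 0.1375, edgeR) was called. Against CD31+ cells neither was called either (-0.35, adjusted p = 0.398, and -1.07, adjusted p = 0.1049, edgeR). The library highest in *Slc4a1* within each of the CD324+ and CD31+ populations, replicate 2 and replicate 3, was also the library highest in both globin genes, while in P2 cells *Slc4a1* was highest in replicate 2 and both globin genes in replicate 1. The late erythroid list had 12 genes, of which *Ahsp* was not found by name, *Alas2* was listed at 0 in every library and 10 were tested. The summed level of the list was 622 to 718 CPM in P2 cells, 470 to 718 CPM in CD324+ cells, 361 to 785 CPM in CD31+ cells and 209 to 333 CPM at E18.5. Over all genes tested, 33.8% were called higher and 36.1% lower in P2 against CD324+ cells, and 34.3% and 39.4% against CD31+ cells. In P2 against CD324+ cells 4 of the 10 late erythroid genes were higher and 1 was lower (median log2 fold change -0.26). But 4 were lower without CD31+ replicate 3 and 5 with only the 6 libraries compared. Against CD31+ cells 2 were higher and 1 was lower (median -0.15), with 4 lower without CD31+ replicate 1 and 4 higher without CD31+ replicate 3. Among them, *Trim58*, a ubiquitin ligase of erythroblasts, rose by 2.39 against CD324+ cells (adjusted p = 7.615e-06, edgeR) and *Xpo7*, a nuclear exporter, fell by 1.52 (adjusted p = 8.264e-06, edgeR). *Trim58* is in the study's own list. The part of globin-bearing cells in the level of *Slc4a1* was not tested.

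Between the 2 CD54+ populations of E14.5, 6 members were lower in CD31+ than in CD324+ cells and none was higher, where 34.0% of all genes tested were called lower and 31.7% higher. The 6 log2 fold changes lay close together, between -0.83 for *Slc4a1* (adjusted p = 0.01367) and -0.41 for *Epb41* (adjusted p = 0.01185), with *Sptb* at -0.57 (adjusted p = 0.004075), *Epb42* at -0.58 (adjusted p = 0.01544), *Rhag* at -0.52 (adjusted p = 0.02957) and *Ank1* at -0.43 (adjusted p = 0.01381), all by edgeR. *Add2* had -0.08 (SE 0.17, adjusted p = 0.7016, edgeR, and 0.033 with the authors' factors) and *Tmod1* -0.19 (SE 0.16, adjusted p = 0.3116, edgeR). The median was -0.47 over the members and -0.03 over all genes. These calls were close to the threshold: 2 members were called lower without CD31+ replicate 1, where 31.5% of all genes were, and 1 with all 12 libraries in one fit, where 31.1% of all genes were.

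**Figure D2:**
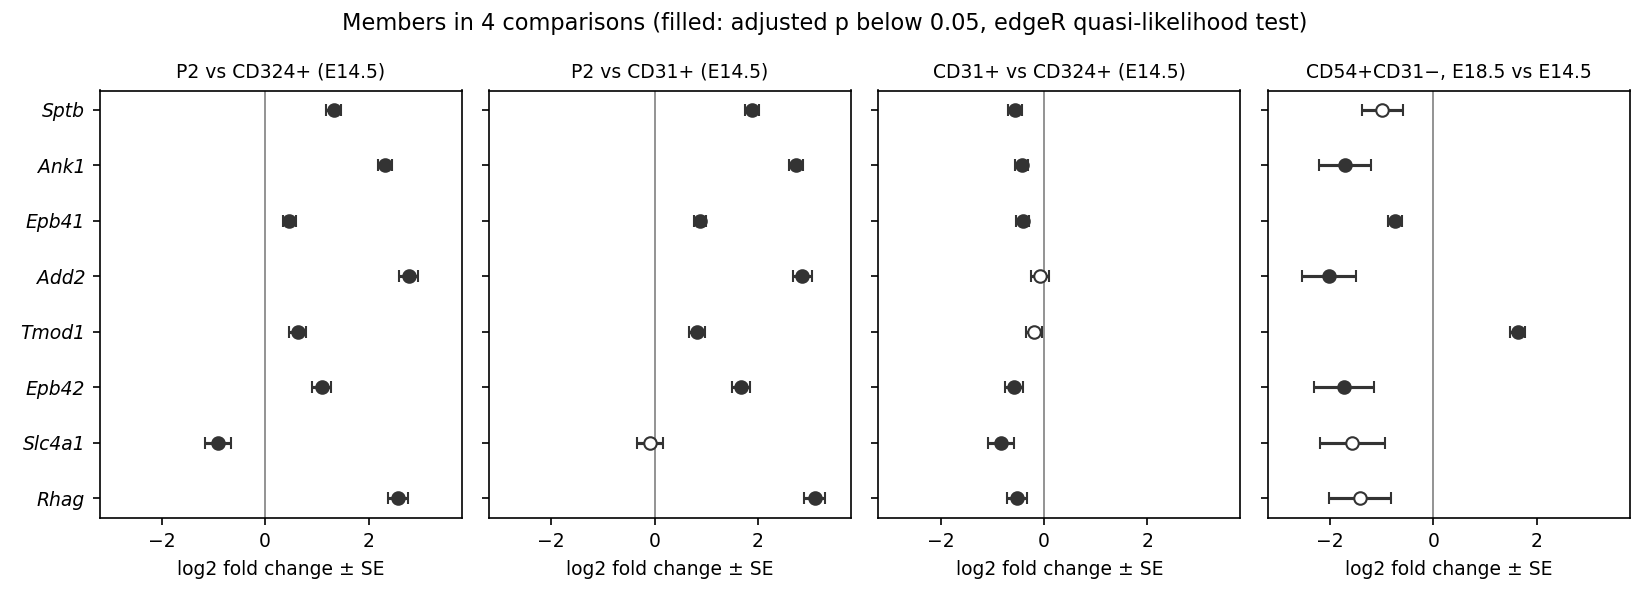
Log2 fold change ± SE (standard error) of the 8 genes in each of the 4 comparisons, with filled points where the adjusted p of edgeR was below 0.05. *Ank1*, *Add2* and *Rhag* lie above 2 in both P2 panels, *Slc4a1* lies at -0.91 in the first, and *Tmod1* at 1.63 is the only point to the right in the last.

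From E14.5 to E18.5, in cells of the same CD54+CD31− label, 4 members were lower and 1 was higher with all 6 libraries, where 33.5% of all genes were called lower and 35.9% higher over 15863 genes tested. *Add2* fell by 2.02 on the log2 scale (SE 0.52, adjusted p = 0.01129), *Epb42* fell by 1.73 (SE 0.57, adjusted p = 0.03234), *Ank1* fell by 1.70 (SE 0.51, adjusted p = 0.02089) and *Epb41* fell by 0.74 (SE 0.13, adjusted p = 0.002472), all by edgeR. *Slc4a1* had -1.56 (adjusted p = 0.06368, edgeR), *Rhag* -1.41 (adjusted p = 0.07114, edgeR) and *Sptb* -0.98 (adjusted p = 0.06043, edgeR), none of them called. *Tmod1* rose by 1.63 (SE 0.15, adjusted p = 0.000112, edgeR). The median was -1.49 over the members and 0.03 over all genes.

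E18.5 replicate 1 lay apart in these genes as well. The ratio of the mean of replicates 2 and 3 to replicate 1 was 6.38 for *Slc4a1*, 5.72 for *Rhag*, 5.30 for *Epb42*, 4.22 for *Ank1*, 4.04 for *Add2* and 2.88 for *Sptb*. It was 1.34 for *Epb41* and 0.778 for *Tmod1*, the only member that was highest in replicate 1. Without that library 7 members were called lower and *Tmod1* higher, where 35.9% of all genes were called lower and 36.8% higher over 16074 genes tested. In that fit *Add2* fell by 1.61, *Ank1* fell by 1.29, *Epb42* fell by 1.28, *Slc4a1* fell by 1.10, *Rhag* fell by 0.96, *Sptb* fell by 0.64 and *Epb41* fell by 0.63, while *Tmod1* rose by 1.48, all on the log2 scale with adjusted p values between 3.072e-06 and 0.005047 (edgeR). The falls were smaller than with all 6 libraries. Without E14.5 replicate 2 or replicate 3 of the same label, 2 members were called lower, where 29.5% and 29.4% of all genes were.

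Markers of other tissues moved with the E18.5 libraries. Over all genes tested, 35.9% were called higher and 33.5% lower at E18.5, or 36.8% and 35.9% without E18.5 replicate 1. The summed level of 10 genes of cardiac and skeletal muscle, where *Tmod1* is known to be made, was 172 to 376 CPM at E18.5 and at most 9.21 CPM in the E14.5 libraries. Of these 10 genes 8 were tested and 7 were called higher at E18.5, and *Acta1* was at 0 in every E18.5, P2, CD324+ and CD31+ library. All 10 lung genes were called higher. So were all 10 endothelial genes, whose sum was 208 to 264 CPM at E18.5 and 46.1 to 75.4 CPM in CD324+ cells. The hepatoblast sum was lower in every E18.5 than in every CD324+ library. Of the 10 hepatoblast genes 4 were called lower, near the share over all genes, and 1 higher, or 7 and 2 without E18.5 replicate 1. The macrophage sum was 93.0 to 272 CPM against 411 to 566 CPM, but only 1 of its 10 genes was called lower and none higher, or 1 and 1 without E18.5 replicate 1. The lung, endothelial and muscle counts were the same without that library. The part of these tissues in the levels of *Tmod1* and of the other members was not tested, and cell makeup and age cannot be told apart in this comparison.

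Divided by exon length, the genes can be compared with each other within a library. In P2 cells the mean levels per kilobase of merged exons were 67.9 for *Rhag*, 58.3 for *Ank1*, 55.3 for *Sptb*, 40.4 for *Add2*, 25.4 for *Epb41*, 24.6 for *Slc4a1*, 13.1 for *Epb42* and 6.71 for *Tmod1* (CPM per kilobase). In CD324+ cells *Slc4a1* led with 45.7 CPM per kilobase, followed by *Sptb* with 21.8 and *Epb41* with 18.1, and *Rhag* and *Ank1* had 11.3 and 11.6. This order depends on the length used. With the longest transcript as length, *Ank1* with 24.96% of the summed level of the 8 genes stood above *Rhag* with 17.97% in P2 cells, and *Epb41* with 22.2% above *Sptb* with 15.9% in CD324+ cells, where *Ank1* held 11.7% and *Rhag* 6.995%. With either length the transcript for band 3 stood below those of its binding partners ankyrin-1 and *Rhag* in P2 cells and above both in CD324+ cells.

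Expressed as shares of the summed level per kilobase of the 8 genes, which do not change with the scaling of a library, *Slc4a1* held 8.93%, 10.4% and 5.95% in the P2 libraries, 34.1%, 39.3% and 35.6% in CD324+ libraries, and 28.9%, 29.2% and 33.5% in CD31+ libraries. *Rhag* went the other way with a mean of 23.3% ± 1.76 (SD, n = 3) over the P2 libraries, 8.996% ± 0.75 over the CD324+ libraries and 9.31% ± 0.507 over the CD31+ libraries. *Ank1* held 19.99%, 9.32% and 10.3%, *Add2* held 13.9%, 4.62% and 6.67%, and *Epb41* held 8.72%, 14.9% and 16.2% on average in the same order. The share of *Sptb* stayed between 15.2% and 19.2% over the 9 E14.5 libraries, and that of *Epb42* between 4.26% and 5.26%. So *Sptb* and *Epb42* kept a near fixed place in the make-up, while *Rhag*, *Ank1* and *Add2* lost and *Slc4a1* and *Epb41* gained share outside P2 cells. At E18.5 *Slc4a1* held 9.48%, 29.2% and 28.6% and *Tmod1* 43.4%, 16.0% and 16.4%, with replicate 1 apart again.

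The distance between 2 libraries, as the percentage points that would have to pass between genes to turn one make-up into the other, was 2.99 to 5.54 within P2 cells and 4.08 to 7.30 within CD324+ cells. It was 33.2 to 39.0 between P2 and CD324+ libraries and 28.2 to 38.0 between P2 and CD31+ libraries. Between CD324+ and CD31+ libraries it was 2.67 to 10.7, which reaches into the distances found within each population. CD324+ and CD31+ cells thus held the 8 genes in much the same make-up, and P2 cells in another. With 3 libraries against 3 an exact permutation test cannot go below 0.10, so no test of these distances is given.

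**Figure D3:**
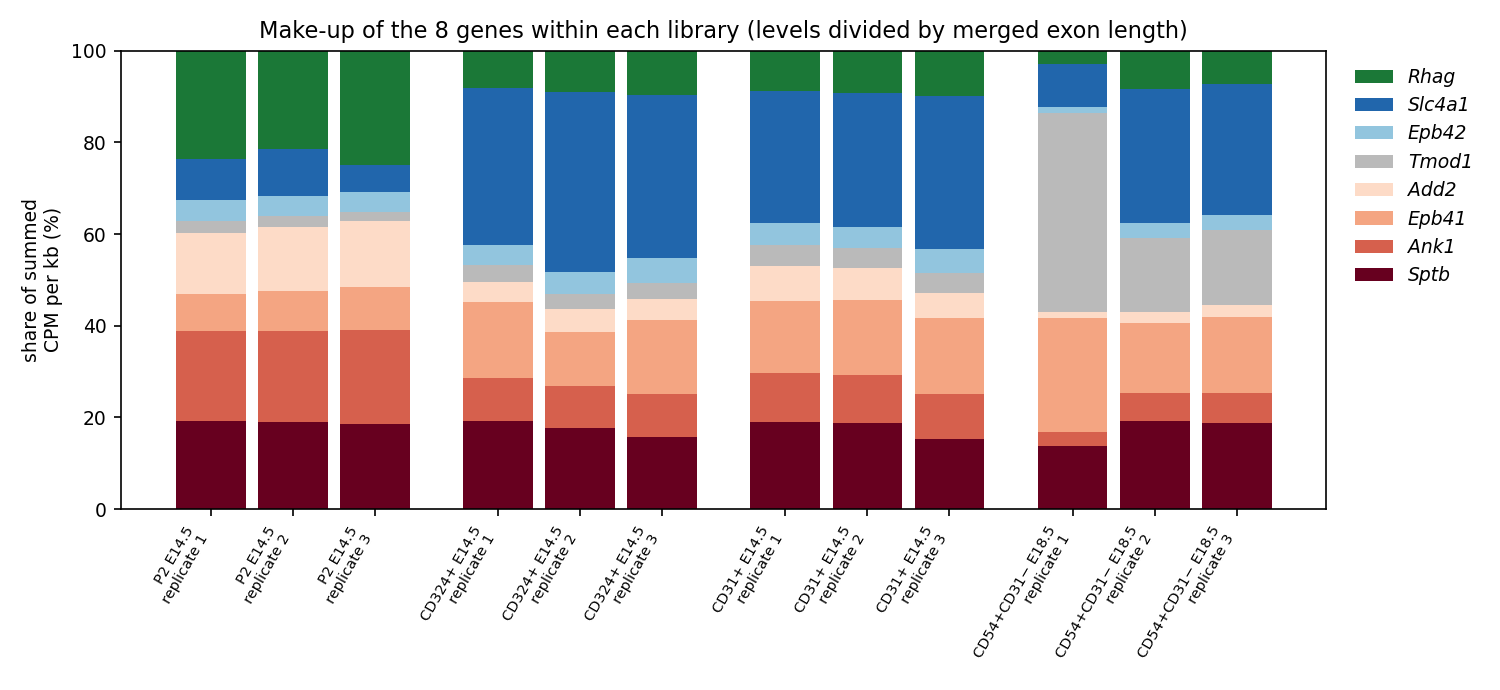
Share of each of the 8 genes in their summed level per kilobase of exon (percent), 1 stacked bar per library. The bars of the CD324+ and CD31+ libraries are alike, the P2 bars hold less *Slc4a1* (8.43% on average against 36.3% and 30.5%) and more *Rhag*, *Ank1* and *Add2*, and *Tmod1* fills 43.4% of E18.5 replicate 1.

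Each of the 8 genes was set beside relatives of its family, several of which are known from cells outside the blood, and the share of a family's level per kilobase held by its red cell gene was computed after these data had been seen. In P2 cells *Rhag* held 99.95% of its family (*Rhag*, *Rhbg*, *Rhcg*), *Ank1* 98.8% of the ankyrins, *Slc4a1* 93.1% of 3 anion exchangers and *Sptb* 91.8% of 4 β-spectrins. *Epb41* held 87.3% of 4 genes of the protein 4.1 family and *Epb42* 76.0% beside the transglutaminases *Tgm1* and *Tgm2*. *Add2* held 40.7% of the adducins, of which α-adducin (*Add1*) is a partner in the same complex, and *Tmod1* held 60.5% of the tropomodulins. In CD324+ cells the share of *Sptb* was 42.1%, that of *Ank1* 47.8%, that of *Epb41* 54.8% and that of *Add2* 7.56%. In CD31+ cells *Sptb* held 14.2% and *Epb41* 20.01%, but *Ank1* still held 84.1% and *Epb42* 52.8%. *Slc4a1* kept at least 79.6% and *Rhag* at least 87.3% in every E14.5 library. With the longest transcript as length the P2 share of *Tmod1* was 40.9% and the CD324+ shares of *Sptb* and *Ank1* were 30.9% and 34.1%, so the sizes of these shares depend on the length used.

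**Figure D4:**
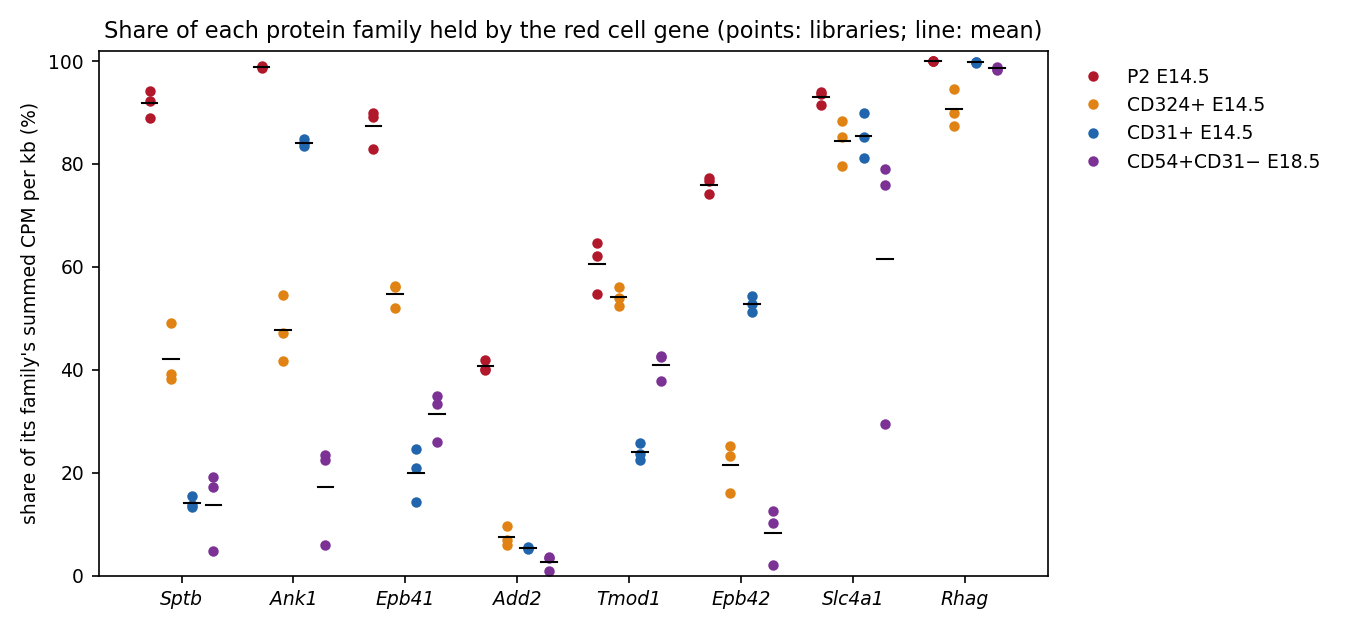
Share of each family's summed level per kilobase held by its red cell gene (percent), with 1 point per library and a line at the population mean. P2 points lie highest for all 8 genes on average, from 40.7% for *Add2* to 99.95% for *Rhag*, and the CD31+ points fall lowest at E14.5 for *Sptb* (14.2%), *Epb41* (20.01%), *Add2* (5.30%) and *Tmod1* (24.0%).

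Most of the relatives were lower in P2 cells. Over all genes tested, 36.1% were called lower and 33.8% higher in P2 than in CD324+ cells. Against CD31+ cells 39.4% were lower and 34.3% higher. In CD31+ against CD324+ cells 31.7% were higher and 34.0% lower, and at E18.5 against E14.5 35.9% were higher and 33.5% lower. Of 20 relatives in a list drawn up from the same families, 19 were tested, and 14 were lower and 2 higher in P2 than in CD324+ cells (median log2 fold change -2.60). The largest fall was that of *Rhbg*, an Rh glycoprotein of liver and kidney (adjusted p = 0.0001118, edgeR), and the largest rise was 0.51 for *Add1* (adjusted p = 0.0004944, edgeR). *Rhbg* had 2.35, 1.48 and 2.57 CPM in CD324+ cells and 0 to 5 counts in each library of the other 3 populations, too few for a fold change to be given. Against CD31+ cells 11 were lower and 1 higher (median -1.34), with *Sptan1*, another spectrin, falling by 4.91 (adjusted p = 3.022e-07, edgeR) and *Add1* again the one that rose, by 0.26 (adjusted p = 0.02546, edgeR). Between CD31+ and CD324+ cells 7 were higher and 10 lower (median -0.89), led by *Epb41l2* with 3.03 (adjusted p = 1.034e-06, edgeR) and, at the lower end, *Rhbg* (adjusted p = 8.289e-05, edgeR). At E18.5 against E14.5 12 were higher and 6 lower (median 0.66), and the same counts were found without E18.5 replicate 1 (median 0.76). These were led, with all libraries, by *Tmod2*, a tropomodulin known from neurons, with 2.57, 2.02 and 2.37 CPM against at most 0.113 CPM in CD324+ cells (adjusted p = 6.062e-05, edgeR), and with *Rhbg* at the lower end (adjusted p = 0.0001091, edgeR).

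Of 28 further proteins of the red cell surface and skeleton, 26 were tested, and *Icam4* and *Piezo1* were listed at 0 in every library. In P2 against CD324+ cells 15 were higher and 7 lower (median log2 fold change 0.66), and against CD31+ cells 15 were higher and 8 lower (median 0.72). Over all genes tested, 33.8% were called higher and 36.1% lower in the first comparison (median -0.01). In the second 34.3% were higher and 39.4% lower (median -0.13).

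The extremes of the partner list were surface proteins. *Kcnn4*, the calcium-gated potassium channel, rose most against CD324+ cells, by 3.09 (adjusted p = 8.076e-07, edgeR), and *Ermap*, an erythroblast membrane protein, rose most against CD31+ cells, by 3.59 (adjusted p = 9.963e-08, edgeR). *Kcnn4*, *Ermap* and *Slc14a1* are in the study's own list of genes from these libraries. *Bcam*, the Lutheran glycoprotein that epithelia also carry, fell by 4.30 against CD324+ cells (adjusted p = 1.74e-08, edgeR), and *Cd59a*, an inhibitor of complement, fell by 3.69 against CD31+ cells (adjusted p = 8.719e-08, edgeR). In CD31+ against CD324+ cells 9 partners were higher and 11 lower (median -0.22), where 31.7% of all genes were higher and 34.0% lower (median -0.03). The 11 became 4 with all 12 libraries in one fit and 7 without CD31+ replicate 1. The partners ran from *Abcb6*, a porphyrin transporter, with -1.93 (adjusted p = 3.291e-07, edgeR) to *Aqp1*, the water channel of red cells and endothelium, with 4.63 (adjusted p = 2.248e-07, edgeR). At E18.5 against E14.5 4 partners were higher and 14 lower (median -1.43), or 4 and 18 without E18.5 replicate 1 (median -1.08). Of all genes 35.9% were higher and 33.5% lower, or 36.8% and 35.9% without that library. With all libraries the partners ran from *Cd59a* with -2.70 (adjusted p = 0.0002647, edgeR) to *Bcam* with 4.39 (adjusted p = 5.944e-05, edgeR).

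Pearson's r of log2(CPM + 1) over the 12 libraries, compared over 13212 genes, describes how alike the patterns were. The libraries fall into 4 populations that differ in most genes, so these values describe the populations and carry no p. *Sptb*, *Ank1*, *Epb42*, *Add2* and *Rhag* had r between 0.956 and 0.993 with each other. *Epb41* had 0.934 to 0.957 with them. *Slc4a1* had 0.509 to 0.725 with these 6 genes and *Tmod1* between -0.463 and -0.242. The most similar genes of *Ank1* were *Ermap* (0.996), *Add2* (0.993) and *Rhd* (0.993), and those of *Rhag* were *Ermap* (0.994), *Ank1* (0.993) and *Slc16a6* (0.991). *Sptb* was closest to *Rhag* (0.988), *Rhd* (0.988) and *Ank1* (0.988), and *Hemgn* (0.993) and *Kel* (0.99) were among the 3 closest to *Epb42*. *Add2* was closest to *Gfi1b* (0.997), *Gata1* (0.997) and *Mns1* (0.995). For *Epb41* the closest were *Dck* (0.995) and *Cks2* (0.994), which are genes of nucleotide metabolism and the cell cycle rather than of the membrane. For *Slc4a1* they were *Sgk3* (0.961), *Scarb1* (0.953) and *Hba-a1* (0.941), and for *Tmod1* *Foxo3* (0.971), *Nfe2l2* (0.971) and *Stam* (0.969).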

How the data were processed

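Sequencing used rRNA-depleted RNA of sorted cells and a stranded total RNA kit. Per the submitters' processing notes, cutadapt 1.11, STAR 2.5.0a, featureCounts 1.4.6-p3, DESeq2 and R 3.5.1 were used, and the study aligned reads to GRCm38. The strand setting and the treatment of reads with several alignments are not given in the sources used here. For each gene the authors deposited a whole-number raw count and a score, which is that count times 1 factor per library, rounded. All tests rest on the counts, and the score served only to read the authors' factors.

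Tests used edgeR 4.0.16 in R 4.3.3 (TMM, filterByExpr, quasi-likelihood test, Benjamini-Hochberg adjustment over all genes tested), with population as the only factor, in the 9 E14.5 libraries together and in the 6 CD54+CD31− libraries separately. The procedure was tested on simulated data in which few genes changed. That test cannot check the scaling between populations that differ in most genes. Lengths and coordinates come from GENCODE M21 (37932 of 38127 identifiers matched). Alternatives were DESeq2 1.42.0, its size factors, the authors' factors, no filter on low counts, at least 10 counts in every library, genes above 1% of a library left out, other sets of libraries, a replicate block, and each library left out. Replicate libraries differed beyond sampling noise (lowest chi-square divided by its degrees of freedom 42.0). The replicate numbers come from the labels. Deviations of same-numbered libraries correlated at 0.122 to 0.334 between CD31+ and CD324+ cells. They correlated at 0.0152 to 0.336 between P2 and CD31+ cells and at -0.0199 to 0.0839 between P2 and CD324+ cells. Libraries with different numbers were not compared, so these values cannot show whether the numbers pair any libraries. The main tests do not use a pairing. A replicate block was fitted as an alternative and changed no member's call at E14.5.

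The 8 members, the other lists and the tests were chosen with earlier results of these data known. The named genes are the members, the largest called rise and fall of each list in each comparison, and for each member the 3 genes with the highest correlation (mean level of at least 1 CPM). Some genes that this rule names are not reported here. *Trim58*, *Xpo7*, *Hba-a1* and *Hbb-bs* were named after their values were seen, except where they are a list's extremes.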

Additional observations from a re-analysis of the deposited data

How the results depend on the processing

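Over 18 alternatives for each E14.5 comparison and 14 for E18.5 against E14.5, the direction and call of a member were kept in 141 of 144 fits of P2 against CD324+ cells, 142 of 144 of P2 against CD31+ cells, 130 of 144 of CD31+ against CD324+ cells and 93 of 112 of E18.5 against E14.5. In P2 against CD324+ cells, *Slc4a1* was not called with all 12 libraries in one fit. With the authors' factors, *Epb41* (adjusted p = 0.1396, edgeR) and *Tmod1* (adjusted p = 0.05682, edgeR) were not called in that comparison. In CD31+ against CD324+ cells 1 member was called lower with all 12 libraries in one fit, where 31.1% of all genes were. Leaving out each library gave 2 to 6 there, the 2 without CD31+ replicate 1, where 31.5% of all genes were. At E18.5 against E14.5, *Sptb*, *Slc4a1* and *Rhag* were also called lower with DESeq2, all 12 libraries in one fit and the replicate block. *Epb42* was not called without E14.5 replicate 1, 2 or 3 or without E18.5 replicate 3 (adjusted p between 0.05162 and 0.08849, edgeR). *Ank1* was not called without E14.5 replicate 2 or 3 (adjusted p = 0.06223 and 0.05586, edgeR). Leaving out each library gave 2 to 7 members called lower in that comparison. It was 7 without E18.5 replicate 1, where 35.9% of all genes were. It was 2 without E14.5 replicate 2 or replicate 3, where 29.5% and 29.4% of all genes were. Sign changes occurred only in values that were not called. *Slc4a1* in P2 against CD31+ cells had 0.15 without CD31+ replicate 3 and 0.14 without P2 replicate 3, in a range of -0.22 to 0.15 over the libraries left out. *Add2* in CD31+ against CD324+ cells had 0.033 with the authors' factors and 0.091 without CD324+ replicate 2, in a range of -0.27 to 0.091 over the libraries left out. The causes were not tested.

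With the replicate block, *Sptb* (-1.11), *Slc4a1* (-1.91) and *Rhag* (-1.72) were also called at E18.5, where the numbers are only shared (correlations of 0.0173 to 0.0688). In the E14.5 comparisons the block changed no member's call. The authors' factors moved the median log2 fold change of all genes by -0.26 in P2 against CD324+ cells, -0.37 in P2 against CD31+ cells, 0.11 in CD31+ against CD324+ cells and 0.24 at E18.5, and the share of calls that were higher went from 48.4% to 38.2% and from 46.6% to 33.9% in the 2 comparisons of P2 cells. Counts of all genes called stayed within 1.5 times in every alternative. Leaving out each library gave 10220 to 11102, 10845 to 11514, 9305 to 10257 and 9997 to 11689 genes called in the 4 comparisons. Counts over the other lists that moved by over 1.5 times were late erythroid genes lower in P2 cells (1 against CD324+ cells, 2 to 5 in such alternatives, and 1 against CD31+ cells, 2 to 4), late erythroid genes higher in P2 than in CD31+ cells (2, and 4), relatives higher in P2 cells (2 against CD324+ cells, and 1, and 1 against CD31+ cells, 0 to 2), late erythroid genes (3 higher, and 1, and 1 lower, and 5), regulators (2 higher, and 1, and 1 lower, and 0) and partners (11 lower, and 4 to 7) in CD31+ against CD324+ cells, and relatives (6 lower, 2 to 3), late erythroid genes (6 lower, 2 to 3) and regulators (1 higher, and 0) at E18.5. Precision is limited by 3 libraries per population, not by depth.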

Other observations

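The regulators of erythroid genes were another group with its highest levels in P2 cells. Of 9 regulators listed, *Zfpm1* was listed at 0 in every library and 8 were tested. All 8 were higher in P2 cells than in CD324+ cells (median log2 fold change 2.69) and than in CD31+ cells (median 2.44). Of all genes tested, 33.8% were called higher in the first comparison (median -0.01) and 34.3% in the second (median -0.13). Most of them, such as *Gata1* and *Klf1*, are in the study's own list drawn from these libraries. Their summed level was 1362 to 1424 CPM in P2 cells, 190 to 309 CPM in CD324+ cells, 311 to 384 CPM in CD31+ cells and 83.1 to 118 CPM at E18.5. In CD31+ against CD324+ cells 2 of the 8 were higher, *Tal1* (0.90) and *Ldb1* (1.24), and *Klf1* was lower (-0.76). Of all genes tested, 31.7% were higher and 34.0% lower. With all 12 libraries in one fit 1 regulator was higher and 0 lower, and without CD31+ replicate 1 0 were lower. At E18.5 against E14.5 6 regulators were lower and *Ldb1* was higher (0.35), where 33.5% of all genes were lower and 35.9% higher. Without E18.5 replicate 1 7 regulators were lower and 1 higher, where 35.9% and 36.8% of all genes were.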
